A study of Homo sapiens with 14 samples.

Results

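The genes described here encode the proteins that turn plasminogen into plasmin at the cell surface and the inhibitors that hold them back: PLAU, PLAT, PLAUR, SERPINE2 and SERPINB2. These 5 genes, of the 54628 gene symbols counted in each library, were taken as a named set. The set was chosen by function and on 1 measured value, the CPM of SERPINB2, which had been seen to fall with HMGB2 knockdown, so the siHMGB2 values of the 5 genes are given as a description without a test. RNA was sequenced from IMR90 cells, a line of primary human lung fibroblasts grown, per the labels, from 2 isolates whose assignment to libraries is not given in the sources used here.

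The 14 libraries fall into 6 groups by label. WT (2 libraries) are untreated cells and siHMGB2 (2 libraries) are untreated cells with HMGB2, a chromatin protein, knocked down by siRNA. ICM (4 libraries) are cells with no knockdown treated with 10 µM inflachromene, a small molecule that binds HMGB1 and HMGB2, for up to 6 days to bring on senescence, a lasting exit from the cell cycle. The groups siSRRM2, siBANF1 and siCTCF (2 libraries each) carry the same ICM treatment plus knockdown of SRRM2 (a splicing-speckle protein), BANF1 (a chromatin protein of the nuclear envelope) or CTCF (a DNA-binding organiser of chromatin loops). The study compared ICM and siHMGB2 with WT, and the knockdowns on the ICM background with ICM. ICM 3 and ICM 4 and the siCTCF libraries have labels of another form than the other 10, in which the name of the cell line carries a running number, and they are treated as a second set. ICM is therefore given as ICM 1-2 and ICM 3-4, which makes 7 groups. No WT library belongs to that set, and where ICM 3-4 is compared with WT the treatment cannot be told apart from the set. The labels do not say that replicates are separate cultures, so p-values measure the spread between these samples, which may be technical.

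PLAU encodes urokinase (uPA) and PLAT encodes tissue plasminogen activator (tPA), the serine proteases that cleave plasminogen to plasmin. PLAUR encodes the urokinase receptor (uPAR), which holds uPA on the cell surface. SERPINE2 (protease nexin-1) is a secreted inhibitor of thrombin, uPA and tPA, and SERPINB2 (plasminogen activator inhibitor 2) is an inhibitor of uPA that is largely kept inside the cell. Plasmin degrades fibrin and matrix, and fibroblasts secrete the activators and take part in its control.

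RefSeq promoter windows (GRCh38.p14), from 250 bases before to 50 bases after a start site, were matched for PLAU, PLAUR, SERPINE2 and SERPINB2. No window of PLAT was searched. Both strands of each whole window were searched for 5 common promoter motifs. The AP-1 motif TGANTCA was found in the window of PLAUR, 186 bases before the start, and in that of SERPINB2, 102 bases before the start. Of 35116 RefSeq windows, 7.71% hold it. The TATA box TATAAA was found in the SERPINB2 window, 30 bases before the start, and 11.5% of windows hold it. Neither was in the 2 PLAU or the 2 SERPINE2 windows. A GC box (GGGCGG, in 45% of windows) was found 3 times in 1 PLAU window and in both SERPINE2 windows, 1 of which also holds an E-box (CACGTG, in 7.26%). A cyclic AMP element (TGACGTCA, in 1.85%) was in none of these windows. The SERPINB2 stretch is shown because it carries both the AP-1 motif and the TATA box. Whether any of these motifs bears on the levels of the genes was not tested. The PLAUR stretch is the surrounding of its motif, and it lies within an annotated first exon of other PLAUR transcripts. Capitals mark the motifs, and the sequences run 5′ to 3′ on the gene's strand, SERPINB2 from chr18:63887455-63887699 (plus strand) and PLAUR from chr19:43670337-43670366 (minus strand).
SERPINB2: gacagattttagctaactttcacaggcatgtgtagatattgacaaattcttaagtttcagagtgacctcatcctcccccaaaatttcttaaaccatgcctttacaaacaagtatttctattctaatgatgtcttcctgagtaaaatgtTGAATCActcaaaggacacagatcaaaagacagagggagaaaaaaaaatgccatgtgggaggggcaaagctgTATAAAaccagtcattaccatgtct
PLAUR: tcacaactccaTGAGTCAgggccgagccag

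The genes lie on different chromosomes. In GRCh38.p14 (RefSeq), PLAU lies at chr10:73908832-73917494 on the plus strand, PLAT at chr8:42174718-42207565 on the minus strand, PLAUR at chr19:43646095-43670169 on the minus strand, SERPINE2 at chr2:223975045-224039286 on the minus strand and SERPINB2 at chr18:63887705-63903888 on the plus strand.

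Levels are in CPM, the deposited counts per library scaled to a common total of gene counts, and gene counts were 22336161 to 58257456 per library. All 5 genes passed the filter on low counts in every comparison, and the lowest count of a member was 95 reads, for SERPINB2 in siHMGB2 2. The share of small RNA symbols was 3.27% to 6.2% for the siSRRM2, siBANF1 and ICM 1-2 libraries and 0.00634% to 0.0111% for the rest. Mitochondrial mRNA took 2.7% to 3.54% in WT and siHMGB2 and 0.0675% to 0.754% elsewhere. All 8 fibroblast markers were above 0 in every library. Their summed level was 17740 to 31860 CPM in WT and siHMGB2, 3937 to 11080 CPM in ICM 1-2, siSRRM2 and siBANF1, and 1763 to 4196 CPM in ICM 3-4 and siCTCF. Summed levels were 33.79 to 212.2 CPM for 5 epithelial markers, 0.07883 to 9.722 CPM for 4 endothelial markers and 40.03 to 105 CPM for 4 leukocyte markers. HMGB2 stood at 11.5% and 12.6% of the same-numbered WT in the siHMGB2 libraries, and CTCF at 75.4% and 25% of ICM 3 and ICM 4 in the siCTCF libraries. SRRM2 stood at 32% and 68% of ICM 1 and ICM 2 in the libraries labelled siSRRM2, and at 24.8% and 15.1% in those labelled siBANF1, where BANF1 stood at 125% and 112%. In the libraries labelled siSRRM2, BANF1 stood at 253% and 102%. BANF1 was therefore not lowered under either labelling, the file names of these 4 libraries carry the other knockdown, and the groups are called by their labels.

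The 5 genes differed widely in how far they ranged over the 14 libraries. PLAT ranged 669-fold from its lowest to its highest library, PLAU 146-fold, SERPINB2 64.5-fold, SERPINE2 12-fold and PLAUR 2.62-fold. The activators and SERPINE2 were lowest in ICM 3-4 and siCTCF, PLAUR was lowest in siSRRM2, and SERPINB2 was lowest in ICM 1.

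**Figure D1:**
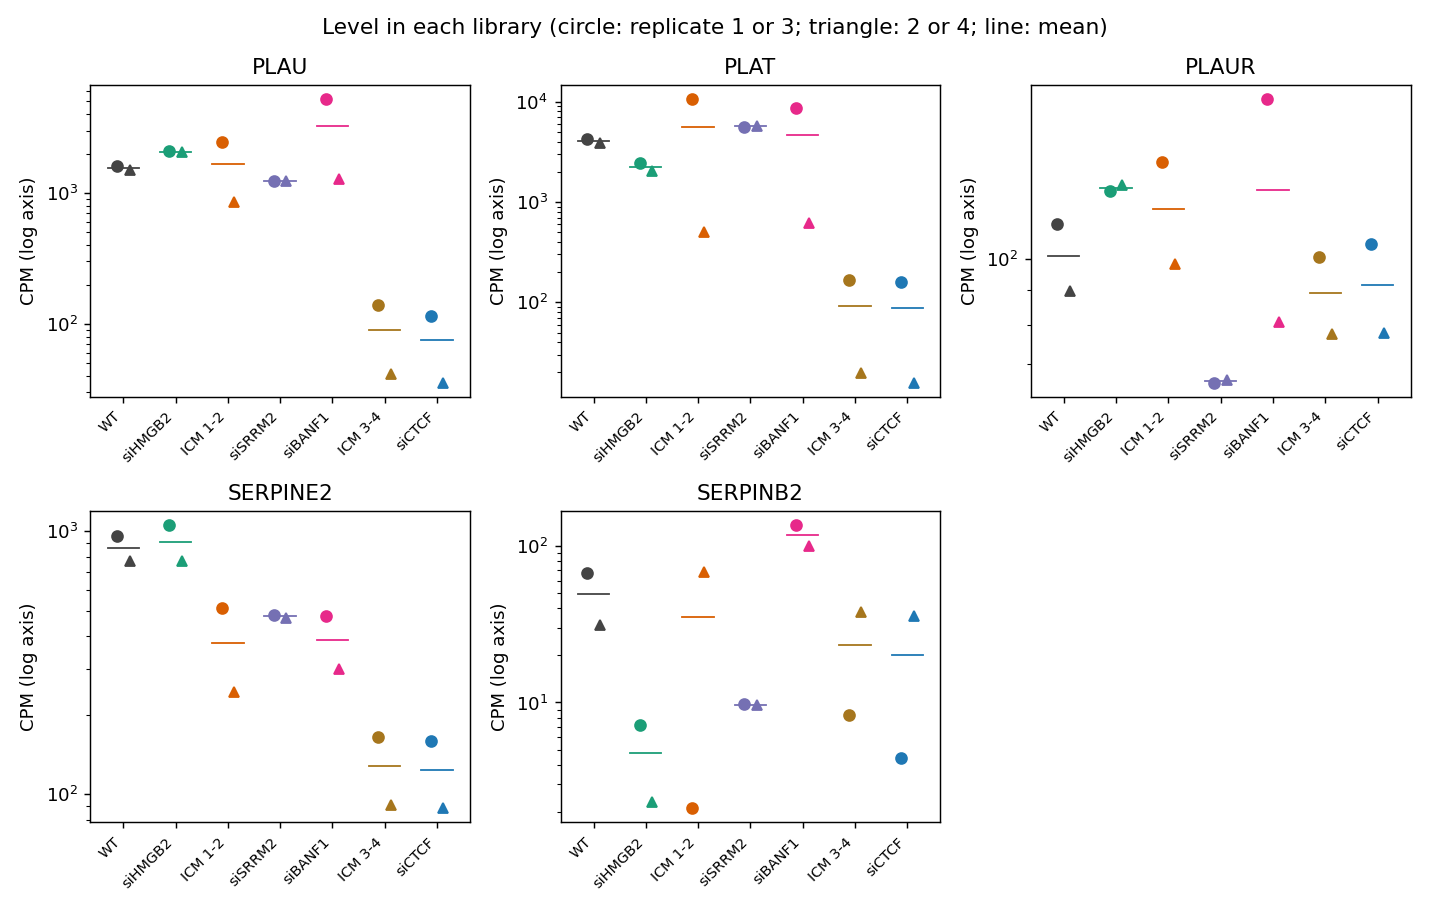
Level of each gene in each library, in CPM on a log axis, by group. Circles are replicate 1 (or 3 for ICM 3-4), triangles replicate 2 (or 4), and the line is the mean of the 2 libraries. PLAU, PLAT and SERPINE2 are lowest in ICM 3-4 and siCTCF, and SERPINB2 has its highest values in siBANF1 (136.1 and 99.52 CPM).

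For PLAT, the gene of tPA, the 2 WT libraries gave 4246 and 3834 CPM and the siHMGB2 libraries 2434 and 2021 CPM. ICM 1-2 gave 10610 and 498.5 CPM, siSRRM2 gave 5647 and 5748 CPM, and siBANF1 gave 8719 and 621.8 CPM. ICM 3-4 gave 165.2 and 19.59 CPM, and siCTCF gave 158 and 15.87 CPM. The replicates of ICM 1-2 thus lay on either side of WT, 21.3-fold apart, those of siBANF1 lay 14-fold apart, and those of WT, siHMGB2 and siSRRM2 lay 1.2-fold apart or less. In the order of their means, siSRRM2, ICM 1-2, siBANF1 and WT each overlapped the next, siHMGB2 lay below all WT and siSRRM2 libraries, and ICM 3-4 and siCTCF, whose ranges overlapped, lay below every other library.

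For PLAU, the gene of uPA, WT gave 1611 and 1505 CPM, siHMGB2 gave 2086 and 2058 CPM, and ICM 1-2 gave 2461 and 859.4 CPM. The levels were 1228 and 1227 CPM with siSRRM2 and 5213 and 1282 CPM with siBANF1. They were 139 and 41.55 CPM for ICM 3-4, and 114.8 and 35.66 CPM with siCTCF. As with PLAT, replicate 1 was the higher library in ICM 1-2 and siBANF1, by 2.86-fold and 4.06-fold. The ranges of siBANF1, siHMGB2, ICM 1-2 and WT overlapped from each group to the next in the order of their means. The siSRRM2 libraries lay below WT and siHMGB2, and the 4 libraries of ICM 3-4 and siCTCF lay below the other 10.

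PLAUR, the gene of the receptor, stood at 112.7 and 89.85 CPM (WT), 126.1 and 128.8 CPM (siHMGB2) and 139.1 and 98.53 CPM (ICM 1-2). The siSRRM2 libraries gave 65.76 and 66.4 CPM, and the siBANF1 libraries 172.6 and 80.83 CPM. The second set gave 100.8 and 77.53 CPM (ICM 3-4) and 105.4 and 77.78 CPM (siCTCF). Neighbouring groups overlapped in the order of their means, apart from siSRRM2, whose libraries lay below all others.

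SERPINE2, the gene of protease nexin-1, stood at 962 and 768.7 CPM (WT), 1059 and 770.1 CPM (siHMGB2) and 509.3 and 246.1 CPM (ICM 1-2). On the ICM background, siSRRM2 gave 481.6 and 467.8 CPM and siBANF1 gave 474.9 and 300.3 CPM. The 4 libraries of the second set gave 165 and 91.33 CPM (ICM 3-4) and 160 and 88.5 CPM (siCTCF). The libraries fell into 3 separate ranges, with WT and siHMGB2 highest, ICM 1-2, siSRRM2 and siBANF1 between, and ICM 3-4 and siCTCF lowest.

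SERPINB2, the gene of plasminogen activator inhibitor 2, had levels of 66.65 and 31.39 CPM (WT), 7.137 and 2.308 CPM (siHMGB2) and 2.11 and 68.56 CPM (ICM 1-2). Its levels were 9.751 and 9.585 CPM with siSRRM2, and 136.1 and 99.52 CPM with siBANF1. ICM 3-4 had 8.366 and 37.96 CPM, and siCTCF had 4.432 and 35.48 CPM. In ICM 1-2, ICM 3-4 and siCTCF its replicates differed in the opposite sense to the activators: replicate 2 of ICM 1-2 was 32.5-fold above replicate 1, ICM 4 was 4.54-fold above ICM 3, and replicate 2 of siCTCF was 8-fold above replicate 1. In WT, siHMGB2 and siBANF1 replicate 1 was the higher library for SERPINB2, as it was for PLAT and PLAU. The siBANF1 libraries lay above all others, and WT, ICM 1-2, ICM 3-4 and siCTCF overlapped.

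Comparing the activators with each other requires levels per length of annotated exon, 2.95 kb for PLAU and 6.62 kb for PLAT. These lengths merge the exons of all annotated transcripts, 5 for PLAU and 12 for PLAT. Which transcripts were expressed was not measured, and which gene lies higher can depend on the lengths used. Without them, PLAT counts were 1.17 and 0.982 times those of PLAU in siHMGB2, and 2.64 and 2.55 times in WT. On the scale of CPM per kb, the ratio of PLAT to PLAU was 1.17 and 1.14 in WT, 0.52 and 0.438 in siHMGB2, and 2.05 and 2.09 in siSRRM2. PLAT thus had the higher level per kb in WT and siSRRM2, and PLAU in siHMGB2. The ratio was 1.92 and 0.259 in ICM 1-2, 0.745 and 0.216 in siBANF1, 0.53 and 0.21 in ICM 3-4, and 0.613 and 0.198 in siCTCF. In ICM 1-2, siBANF1, ICM 3-4 and siCTCF, the library with the lower PLAT level also had the lower ratio, so PLAT differed between those replicates by more than PLAU. In ICM 4 and siCTCF 2, PLAUR was the member with the highest level per kb and PLAT the lowest. PLAU was 21.6 and 25.3 times PLAUR per kb in WT, and 0.809 times PLAUR in ICM 4 and 0.693 times in siCTCF 2.

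**Figure D2:**
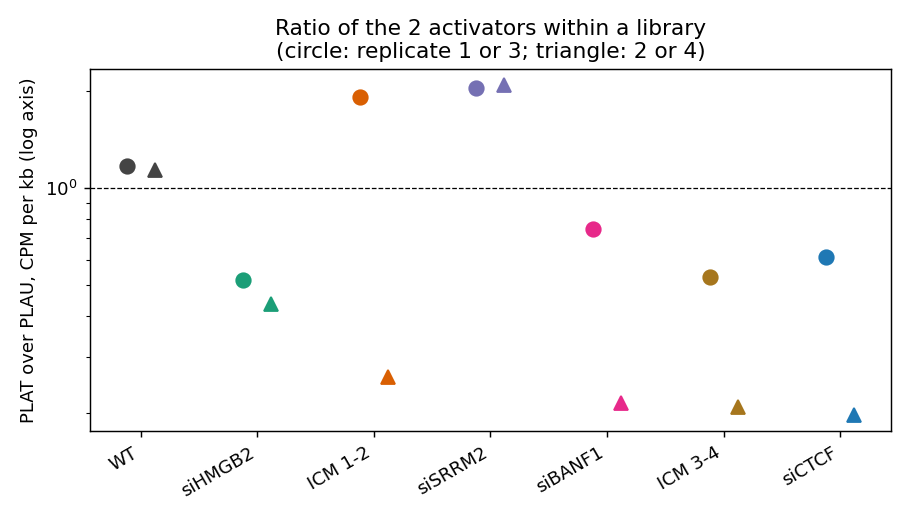
Ratio of the PLAT level to the PLAU level in each library, both as CPM per kb of annotated exon, on a log axis; the dashed line marks equal levels. WT, siSRRM2 and ICM 1 lie above it, and the other 9 libraries below it. Where libraries lie against the line depends on the exon lengths used.

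The first comparison set ICM 1-2 against WT, whose labels have the same form. These libraries also differed in composition. Small RNA symbols took 0.0105% and 0.0111% in WT and 6.2% and 3.27% in ICM 1-2. Reads naming no gene took 17.5% and 17.9% in WT and 35.2% and 26.5% in ICM 1-2. Treatment cannot be told apart from this difference, and its part in the members' values was not tested. SERPINE2 was the member on which ICM 1 and ICM 2 pointed the same way as each other beyond the WT range: its mean level was 377.7 ± 186.1 CPM (SD, n = 2) in ICM 1-2 and 865.4 ± 136.7 CPM (SD, n = 2) in WT, 2.29-fold lower. The quasi-likelihood test of edgeR gave a log2 fold change of -1.20 (SE 0.54, adjusted p = 0.277), which did not pass the threshold of 0.05. The log2 fold changes of PLAU (0.10, SE 0.67), PLAT (0.51, SE 1.37), PLAUR (0.20, SE 0.36) and SERPINB2 (-0.63, SE 1.38) were smaller than their standard errors. Called genes, those with a Benjamini-Hochberg adjusted p under 0.05, made up 0% of the 16617 tested by edgeR, against 3664 genes at an unadjusted p under 0.05 and 1917 called by DESeq2. In the absence of ICM 2, log2 fold changes were 0.71 for PLAU, 1.45 for PLAT, 0.51 for PLAUR, -0.71 for SERPINE2 and -4.48 for SERPINB2. In the absence of ICM 1, they were -1.02 for PLAU, -3.18 for PLAT, -0.21 for PLAUR, -1.98 for SERPINE2 and 0.32 for SERPINB2. Only SERPINE2 kept its direction. A lone library is assumed in these fits to vary like the others.

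In the second set, PLAU, PLAT and SERPINE2 fell to far below WT. PLAT had a mean of 92.39 ± 103 CPM (SD, n = 2) in ICM 3-4 and 4040 ± 291.5 CPM (SD, n = 2) in WT, 43.7-fold lower, with a log2 fold change of -5.61 (SE 1.04, edgeR adjusted p = 0.00629). PLAU was 17.3-fold lower, at 90.27 ± 68.91 CPM against 1558 ± 74.99 CPM (log2 fold change -4.28, SE 0.61, edgeR adjusted p = 0.00263). SERPINE2 was 6.75-fold lower, at 128.2 ± 52.08 CPM (log2 fold change -2.93, SE 0.34, edgeR adjusted p = 0.00148). The 3 genes lay lower in both ICM 3-4 libraries than in both WT libraries, and they were called lower under every scaling, filter, tool and left-out library tried. These 3 of 5 members were called where 55.2% of the 15677 genes tested were called (27.3% lower; 4363 genes higher and 4284 lower; 5142 and 3627 when libraries were scaled by their totals, which shifts the all-gene median from 0.01 to 0.20). The members' median log2 fold change was -2.93.

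PLAUR (-0.37, SE 0.22, edgeR adjusted p = 0.195) and SERPINB2 (-1.29, SE 0.69, edgeR adjusted p = 0.156) did not pass the threshold in that comparison, and the 2 groups' levels overlapped for both. PLAUR was called lower without ICM 3 (-0.67, edgeR adjusted p = 0.00388). SERPINB2 was called lower without WT 2 (-1.77, edgeR adjusted p = 0.0476), without ICM 4 (-2.68, edgeR adjusted p = 0.000129) and with no filter on counts (-1.37, edgeR adjusted p = 5.64e-08). Of the 8 fibroblast markers, 7 were called lower in the same comparison, and their part in the fall of PLAU, PLAT and SERPINE2 was not tested. In bulk RNA, fewer cells of a type and less RNA per cell cannot be told apart.

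ICM 3-4 was also compared with ICM 1-2 directly, a comparison added after the values were seen. Both carry the same treatment, and the second set has no WT library. Differences here are therefore between sets, and they do not measure a difference in the ICM effect. Small RNA symbols took 6.2% and 3.27% in ICM 1-2 and 0.00634% and 0.00989% in ICM 3-4, and the part of this in the members' values was not tested. PLAU was 18.4-fold lower in ICM 3-4 (log2 fold change -4.40, SE 0.91, edgeR adjusted p = 0.0679) and PLAT was 60.1-fold lower (-6.15, SE 1.76, edgeR adjusted p = 0.102). SERPINE2 was 2.95-fold lower (-1.76, SE 0.59, edgeR adjusted p = 0.139). The values of these 3 genes did not overlap between the sets, and the share of all genes that did not overlap was not counted. No member was called, where edgeR called 0.84% of 16195 genes, with 3985 at an unadjusted p under 0.05. PLAUR (-0.60, SE 0.44) and SERPINB2 (-0.68, SE 1.28) overlapped.

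**Figure D3:**
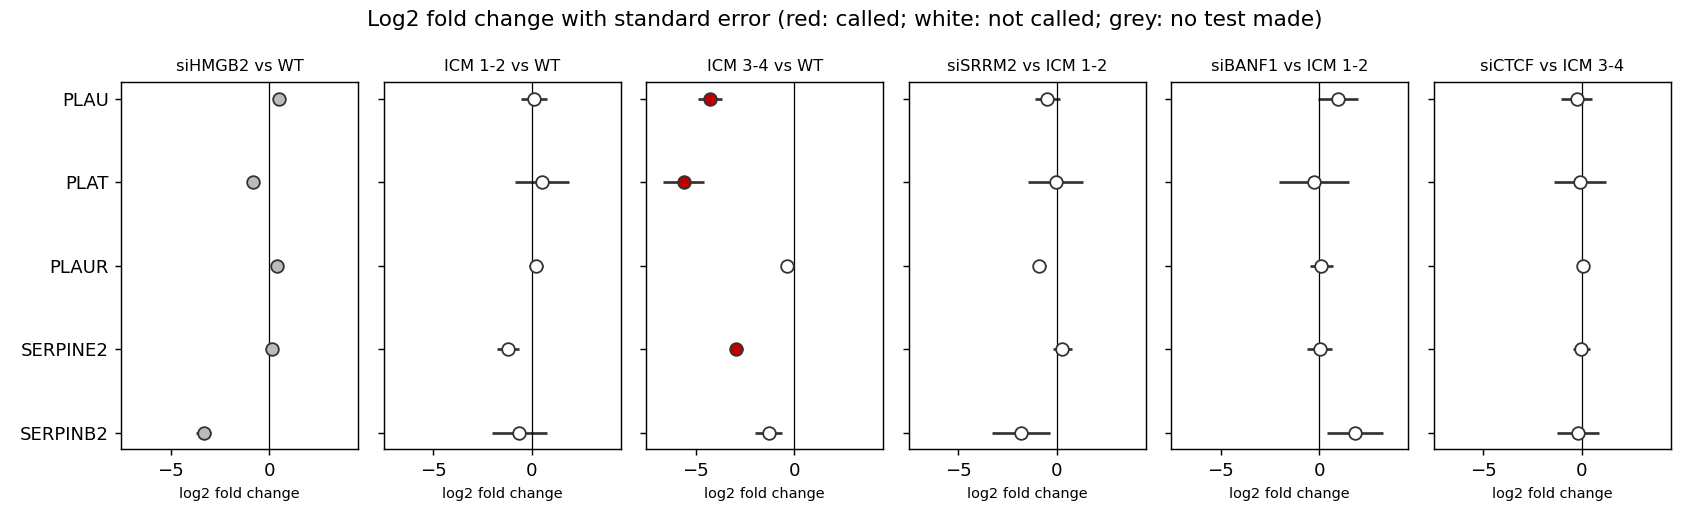
Log2 fold change (points) with its standard error (bars) for each gene in the 6 comparisons. Red points are called, white points are not, and grey points are members in siHMGB2 vs WT, where no test is given. The 3 red members are PLAU, PLAT and SERPINE2 in ICM 3-4 vs WT, between -5.61 and -2.93.

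Knockdown of HMGB2 in untreated cells went with changes of unlike sign in the 5 genes. SERPINB2, the value that led to the choice of the set, had a mean of 4.722 ± 3.415 CPM (SD, n = 2) in siHMGB2 and 49.02 ± 24.94 CPM (SD, n = 2) in WT, 10.4-fold lower, and stood at 10.7% and 7.35% of the same-numbered WT library. PLAT had a mean of 2228 ± 292.1 CPM against 4040 ± 291.5 CPM, 1.81-fold lower. PLAU was 1.33 times, PLAUR 1.26 times and SERPINE2 1.06 times its WT mean. The 2 siHMGB2 libraries lay outside the WT range for PLAU, PLAT, PLAUR and SERPINB2 and overlapped it for SERPINE2. The share of all genes that lay outside it was not counted. By the edgeR test, a different measure, 10.9% of the 15338 genes tested were called. Of these 941 were higher and 727 lower (786 and 999 when scaled by library totals).

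The comparison of siSRRM2 with ICM 1-2 asked what the knockdown changes on the ICM background. The libraries labelled siSRRM2 were nearly identical to each other for every member, and each member's siSRRM2 values lay between ICM 1 and ICM 2 except for PLAUR. PLAUR had a mean of 66.08 ± 0.4503 CPM (SD, n = 2) against 118.8 ± 28.69 CPM (SD, n = 2) in ICM 1-2, 1.8-fold lower, with a log2 fold change of -0.88 (SE 0.31, edgeR adjusted p = 0.563). The log2 fold changes were -0.49 (SE 0.63) for PLAU, -0.06 (SE 1.41) for PLAT, 0.28 (SE 0.48) for SERPINE2 and -1.80 (SE 1.48) for SERPINB2. Among 16828 genes edgeR called 0%, with 1488 at an unadjusted p under 0.05 and 204 called by DESeq2. Leaving out ICM 1 or ICM 2 gave log2 fold changes of opposite sign for 4 of the 5 members. PLAT was 3.58 without ICM 1 and -0.95 without ICM 2, and PLAU was 0.58 and -1.05. SERPINE2 was 1.01 and -0.15, and SERPINB2 was -2.76 and 2.14. PLAUR stayed lower, at -0.51 and -1.12.

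In the libraries labelled siBANF1, SERPINB2 was at its highest. Its mean was 117.8 ± 25.9 CPM (SD, n = 2) against 35.33 ± 46.98 CPM (SD, n = 2) in ICM 1-2, 3.34-fold higher, and siBANF1 1 stood 64.5-fold above ICM 1 while siBANF1 2 stood 1.45-fold above ICM 2. The log2 fold change of 1.83 (SE 1.42, edgeR adjusted p = 1) did not pass the threshold, and it was 0.86 without ICM 1 and 5.76 without ICM 2. The other members had log2 fold changes of 0.97 (SE 1.01) for PLAU, -0.27 (SE 1.77) for PLAT, 0.10 (SE 0.59) for PLAUR and 0.03 (SE 0.64) for SERPINE2, and their levels overlapped with ICM 1-2. Among 17616 genes edgeR called 0%, with 24 at an unadjusted p under 0.05, and DESeq2 called 0. Against siSRRM2, in a comparison added after the values were seen, SERPINB2 was 12.2-fold higher in siBANF1 (log2 fold change 3.67, SE 0.34, edgeR unadjusted p = 0.000328, adjusted p = 0.477). PLAU (2.65-fold) and PLAUR (1.92-fold) also lay above the siSRRM2 libraries without being called (edgeR adjusted p = 0.549 and 0.527), where 0% of 16760 genes were called and 1693 had an unadjusted p under 0.05.

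With CTCF knockdown, the libraries of siCTCF and ICM 3-4 overlapped for every member. The log2 fold changes were -0.25 (SE 0.78) for PLAU, -0.07 (SE 1.32) for PLAT, 0.05 (SE 0.26) for PLAUR, -0.03 (SE 0.43) for SERPINE2 and -0.21 (SE 1.06) for SERPINB2, each with an edgeR adjusted p of 1. Among 14704 genes edgeR called 0%, with 18 at an unadjusted p under 0.05, and DESeq2 called 0. Library by library, siCTCF 1 resembled ICM 3 and siCTCF 2 resembled ICM 4: PLAT stood at 158 against 165.2 CPM in the first pair and 15.87 against 19.59 CPM in the second.

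Across the 14 libraries, PLAU, PLAT and SERPINE2 varied together, and values for SERPINB2 with them were near 0. On the scale of log2(CPM + 0.5), Pearson's r was 0.94 (Spearman's rho 0.80) for PLAU with PLAT, 0.89 (0.84) for PLAU with SERPINE2 and 0.89 (0.68) for PLAT with SERPINE2. For SERPINB2 with the other 4 members, r lay between -0.16 and 0.01 and rho between -0.24 and -0.08. PLAUR had r of 0.47 (0.70) with PLAU, its ligand, 0.37 (0.31) with PLAT and 0.39 (0.46) with SERPINE2. These are descriptions over libraries that share sets, treatments and depth, and the values of the second set carry much of the range. Among the 9201 genes whose mean was 10 CPM or more, the nearest to PLAU were LRRN3 (r = 0.988) and LRRC17 (r = 0.986), to PLAT PKIG and ABCC4 (both r = 0.988), and to SERPINE2 SOX4 (r = 0.981) and FKBP7 (r = 0.976). The nearest to PLAUR was PRDM1 (r = 0.941), and the nearest to SERPINB2 were TMPO (r = 0.893) and LURAP1L (r = 0.879).

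**Figure D4:**
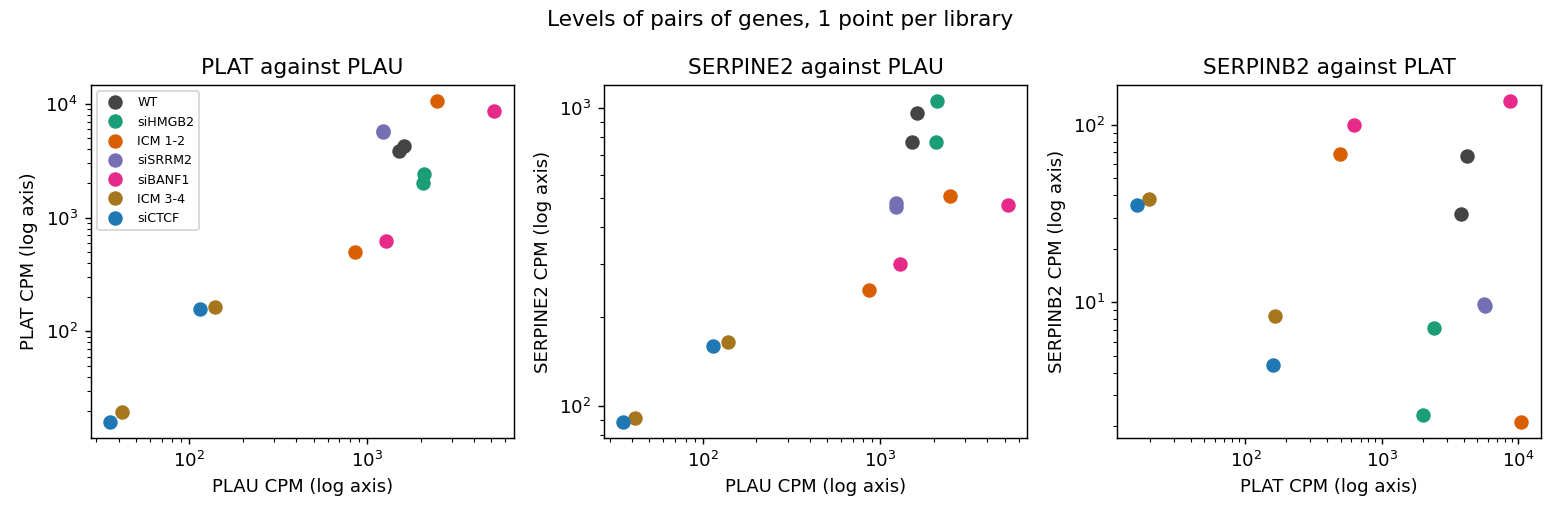
Level of PLAT against PLAU, SERPINE2 against PLAU and SERPINB2 against PLAT, 1 point per library, in CPM on log axes, coloured by group. The first and second panels rise from siCTCF and ICM 3-4 to the other groups (r = 0.94 and 0.89), and the third shows no common direction (r = -0.15).

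The level of PLAT moved with fibroblast markers between replicates in 4 of the 7 pairs. Summed fibroblast markers were 11080 CPM in ICM 1 and 3937 CPM in ICM 2, 7544 and 4206 CPM in siBANF1, 4196 CPM in ICM 3 and 2034 CPM in ICM 4, and 4149 and 1763 CPM in siCTCF. In each of these pairs the library with less PLAT, PLAU and SERPINE2 also had the lower marker sum. In the other 3 pairs the library with less PLAT had the higher sum, which was 17740 and 24120 CPM in WT, 26630 and 31860 CPM in siHMGB2, and 8146 and 7884 CPM in siSRRM2. Summed epithelial markers were 33.79 CPM in ICM 1 and 153.8 CPM in ICM 2, 42.45 and 175.6 CPM in siBANF1, 212.2 CPM in ICM 3 and 190.7 CPM in ICM 4, and 202.9 and 196.5 CPM in siCTCF. The difference in ICM 1-2 and siBANF1 came from KRT18, at 17.72 and 144.3 CPM and at 27.72 and 165.6 CPM, while KRT8 and KRT19 were lower in replicate 2 of both groups. The part of either list in the members' values was not tested.

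Of 43 other genes of the plasminogen system, with inhibitors, receptors, integrin partners and relatives, 26 were tested in siHMGB2 vs WT and 9 were called higher and 1 lower (38.5%, against 10.9% of all genes), with a median log2 fold change of 0.26 against 0 for all genes. Plasminogen (PLG) itself had no count in WT or siHMGB2, which allows up to 0.0894 CPM in a library. Among the plasminogen receptors 2 of 4 were called, S100A10 (0.88, SE 0.13, edgeR adjusted p = 0.00072) and ANXA2, which together form the annexin A2 complex that binds plasminogen and tPA (ANXA2 0.66, SE 0.15, edgeR adjusted p = 0.0109). Among the receptor partners 4 of 11 were called higher, led by the integrin chain ITGA3 (1.23, SE 0.19, edgeR adjusted p = 0.000902). Of the relatives of uPAR, LYPD1 had the largest called change (0.55, SE 0.13, edgeR adjusted p = 0.0133). The gene called lower was TFPI2, a secreted inhibitor of plasmin, which fell by 1.87 on the log2 scale (SE 0.31, edgeR adjusted p = 0.0014).

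In ICM 3-4 vs WT, 26 of the 43 were tested and 5 were called higher and 12 lower (65.4%, against 55.2% of all genes), with a median of -0.76 against 0.01. The receptor partners fell in 8 of 11 cases, led by VTN, the gene of vitronectin, a matrix ligand of uPAR (-3.93, SE 0.44, edgeR adjusted p = 0.00128), from 3.328 to 0.2449 CPM. LRP1, the receptor that clears activator-inhibitor complexes, was also called lower (-1.68, SE 0.18, edgeR adjusted p = 0.00108). No plasminogen receptor of 4 was called. Of the inhibitors, A2M, the gene of the broad protease inhibitor alpha-2-macroglobulin, had the largest change (-4.82, SE 1.01, edgeR adjusted p = 0.0096), and the zymogen-activating protease gene F12 rose from 0.8126 to 3.528 CPM (1.93, SE 0.38, edgeR adjusted p = 0.00799). LYPD3, a relative of uPAR, fell from 3.209 to 0.5675 CPM (-2.68, SE 0.37, edgeR adjusted p = 0.00241). None of the 24 to 26 genes tested was called in the remaining comparisons.

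SERPINB2 lies in a cluster of related intracellular serpins, and 9 other genes of that cluster were followed. Only 2 of them, SERPINB7 and SERPINB8, passed the filter on low counts. SERPINB7 had levels of 1.4 and 2.524 CPM (WT), 3.582 and 5.49 CPM (siHMGB2), 3.729 and 26.81 CPM (ICM 1-2) and 6.024 and 35.55 CPM (ICM 3-4). It was called higher in siHMGB2 (1.27, SE 0.34, edgeR adjusted p = 0.0254), where SERPINB2 was lower, and in ICM 3-4 vs WT (3.19, SE 0.83, edgeR adjusted p = 0.0195). Its replicates differed in the same sense as those of SERPINB2 in ICM 1-2 and ICM 3-4, and in the opposite sense in WT and siHMGB2. SERPINB8, named after its values were seen, was also called higher in ICM 3-4 vs WT (2.51, SE 0.18, edgeR adjusted p = 0.000552). Of all genes tested, 55.2% were called in that comparison and 10.9% in siHMGB2 vs WT.

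Exons of other genes overlap 2 of the members, and whether strand was used in counting is not given in the sources used here. C10orf55, on the opposite strand of PLAU, had counts equal to 2.33% to 2.78% of those of PLAU in WT and siHMGB2 and to 0.0511% to 0.351% elsewhere; without strand, reads of the pair cannot be told apart. SERPINB10, on the strand of SERPINB2, had 0 to 4 counts per library.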

How the data were processed

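Counts of reads per gene symbol, 1 deposited file per library, were used as the authors made them. Per the submitters' processing notes the tools were STAR 2.7.3a, HTSeq 0.12.4 and DESeq2 1.36.0 with build hg38. The annotation and strand setting are not given in the sources used here. The 5 lines naming no gene (12.8% to 41.8% of reads) were left out. Libraries were TruSeq, sequenced from both ends, per the labels' protocols.

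For each comparison, edgeR 4.0.16 (R 4.3.3) was run on the compared libraries alone: filterByExpr, TMM factors and the quasi-likelihood test, with Benjamini-Hochberg adjustment over all genes tested and a threshold of 0.05. CPM used unadjusted library totals. The alternatives were relative log expression or total-count scaling, no filter, DESeq2 1.42.0, a single fit of all libraries, a replicate block, pooled ICM libraries and each library left out. The code was tested on simulated data. Exon lengths came from GENCODE v29. Other steps used Python 3.11.15.

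The 5 genes and the lists were chosen with earlier results of these data known. Named beside them are the targeted genes, the called gene of largest change in each list and comparison, and the 2 genes nearest to each member by Pearson's r of log2(CPM + 0.5); ANXA2, LRP1 and SERPINB8 were named after their values were seen. Depth limits low levels: a count of 0 allows up to 3 counts, or 0.0515 to 0.134 CPM depending on the library, for counting error only. Results of 2 further genes that the rule selects are not reported here.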

Additional observations from a re-analysis of the deposited data

Results flagged for a closer look

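PLAT in ICM 1 stood apart from the other ICM libraries. At 10610 CPM it lay above ICM 2, ICM 3 and ICM 4 (498.5, 165.2 and 19.59 CPM). On this CPM scale, without logarithms, its gap to the nearest of them was 0.955 of the whole range. That is above Dixon's 95% critical value for 4 samples. The log scale used for the correlations was not tried here, so the result holds for this scale only. Of the 5 genes tested over these 4 libraries, PLAT was the 1 that stood apart. The critical value assumes 4 samples of 1 normal population, where chance gives such a gap in about 1 of 20 groups. With 5 genes tried and libraries of 2 sets, that rate does not carry over. ICM 1 and ICM 2 belong to 1 set and ICM 3 and ICM 4 to the other.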

How the results depend on the processing

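The fall of PLAU, PLAT and SERPINE2 in ICM 3-4 vs WT kept its direction and its call under every setting tried, with 3 to 4 members called and log2 fold changes of -5.51 to -3.62, -7.97 to -4.74 and -3.53 to -2.52 as libraries were left out. The genes called there numbered 4697 to 10617 as libraries were left out. The other comparisons depended on which libraries entered; except where the samples or genes entering the fit differ by construction, the cause was not tested. In siHMGB2 vs WT the genes called numbered 0 in the single fit and 815 to 2102 as libraries were left out, and SERPINE2 ranged from -0.10 to 0.35, SERPINB2 from -4.34 to -2.68, PLAUR from 0.24 to 0.57, PLAU from 0.42 to 0.53 and PLAT from -0.93 to -0.68. In ICM 1-2 vs WT they numbered 18 with relative log expression scaling, 26 with total-count scaling, 2658 with no filter, 1917 with DESeq2, 2582 in the single fit, 219 with ICM 1-4, and 320 to 10738 as libraries were left out, with 0 to 5 members called. PLAU there was -0.01 in the single fit and -0.84 with ICM 1-4, PLAT -0.47 and PLAUR -0.07 with ICM 1-4, and the ranges as libraries were left out were -1.02 to 0.71 for PLAU, -3.18 to 1.45 for PLAT, -0.21 to 0.51 for PLAUR and -4.48 to 0.32 for SERPINB2. In siSRRM2 vs ICM 1-2 the genes called numbered 204 with DESeq2, 34 in the single fit and 2 to 12350 as libraries were left out, with 0 to 5 members called. PLAT there was 0.04 with total-count scaling and 0.03 with no filter, and the ranges were -1.05 to 0.58 for PLAU, -0.95 to 3.58 for PLAT, -0.15 to 1.01 for SERPINE2 and -2.76 to 2.14 for SERPINB2. In siBANF1 vs ICM 1-2, 7 genes were called with no filter and 0 to 11 as libraries were left out, and PLAU ranged from -0.43 to 2.02, PLAT from -3.24 to 3.35, PLAUR from -0.60 to 0.58, SERPINE2 from -0.44 to 0.74 and SERPINB2 from 0.86 to 5.76. In siCTCF vs ICM 3-4 the ranges were -1.40 to 0.93 for PLAU, -2.61 to 2.23 for PLAT, -0.24 to 0.29 for PLAUR, -0.59 to 0.50 for SERPINE2 and -2.31 to 1.20 for SERPINB2.

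The replicate numbers were not shown to pair the libraries, since there are 2 pairs in each comparison. Deviations of same-numbered libraries from their group means correlated at 0.17 for WT with siHMGB2, -0.25 for WT with ICM 1-2, 0.12 for ICM 1-2 with siSRRM2, 0.87 for ICM 1-2 with siBANF1, and 0.87 for ICM 3-4 with siCTCF, which share no number and were paired by order. With a replicate block the genes called numbered 2443 in siHMGB2 vs WT, 1183 in ICM 1-2 vs WT, 34 in siSRRM2 vs ICM 1-2, 1 in siBANF1 vs ICM 1-2 and 4 in siCTCF vs ICM 3-4. The crossed pairing of ICM 1-2 and WT, chosen after seeing the data, gave 1071. With the block, PLAU was -0.15 and PLAT -0.86 in ICM 1-2 vs WT, and PLAT was 1.29 in siSRRM2 vs ICM 1-2 and 0.02 in siBANF1 vs ICM 1-2, where SERPINB2 was 3.15.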

Other observations

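Inhibitors outside the 5 genes also differed between replicates. A2M, the gene of alpha-2-macroglobulin, was measured at 177 and 196.2 CPM in WT, 561 and 21.13 CPM in ICM 1-2, 364.2 and 21.71 CPM in siBANF1, 13.76 and 1.104 CPM in ICM 3-4, and 21.09 and 1.68 CPM in siCTCF. In each of the last 4 groups the library with less A2M was also the one with less PLAT. TFPI2, the gene of a plasmin inhibitor, was measured at 3627 and 2102 CPM in WT and 1037 and 466.8 CPM in siHMGB2. It stood at 1316 and 418.4 CPM in ICM 1-2, 1441 and 1481 CPM in siSRRM2, and 1037 and 409.6 CPM in siBANF1. The second set gave 343.8 and 263.9 CPM in ICM 3-4, and 292.4 and 263.2 CPM in siCTCF. Every treated or knockdown library thus lay below both WT libraries. SERPINI1, the gene of neuroserpin, an inhibitor of tPA, was measured at 0.8045 and 0.9328 CPM in WT and 1.05 and 0.6073 CPM in siHMGB2. It stood at 3.196 and 3.961 CPM in ICM 1-2, 5.392 and 5.193 CPM in siSRRM2, and 2.46 and 3.725 CPM in siBANF1. The second set gave 4.81 and 8.593 CPM in ICM 3-4, and 6.492 and 12.51 CPM in siCTCF. These genes were chosen for this description after their values were seen.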
